A study of Mus musculus with 12 samples.

Results

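Transcripts of 43 genes that license, start and carry out DNA replication, or that control entry into S phase, were examined in L929 cells, a line of mouse fibroblasts. The genes were listed by symbol: 11 for origin licensing, 8 for helicase activation, 15 for synthesis at the fork, 4 for nucleotide supply and 5 for G1/S control. Of these, 40 were found among the 17571 genes of the table, and all 40 were among the 10412 genes with an FPKM (fragments mapped to a gene, scaled to its length and to the library total) of at least 1 in at least 3 libraries. Mcm6, Mcm10 and Rfc4 were not analysed here. The list was drawn up with the difference between BX795 and mock known, so that difference is described below without a test.

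RNA-seq libraries came from 4 groups of 3. Mock cells (strain C3H/An, as for all groups) received the vehicle DMSO, and BX795 cells received 0.5 μM BX795 with no plasmid, an inhibitor of TBK1, a kinase of the cGAS and STING pathway that phosphorylates IRF3. The pEGFP-N1 group was transfected for 6 h with a plasmid that encodes EGFP after 1 h with DMSO. The BX795 plus pEGFP-N1 group, called the combination below, was transfected for 6 h after 1 h with 0.5 μM BX795. The same times, 1 h of pretreatment and 6 h, are listed for the mock and BX795 groups. The labels do not say whether the libraries of a group came from separate cultures, so the spread between them may be technical, nor whether the untransfected cells received transfection reagent. All cells were of 1 established line.

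Before S phase, the origin recognition complex binds origins and, with Cdc6 and Cdt1, loads the Mcm helicase onto the DNA there. Cyclin E with its kinase, and Cdc7 with its activator Dbf4, then turn the loaded helicase into a moving one by recruiting Cdc45 and the GINS complex, and DNA polymerases with the clamp PCNA follow. Many of these genes are targets of E2F transcription factors, which are released in late G1 once cyclin D kinases have phosphorylated the retinoblastoma protein.

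Promoter sequence was available from RefSeq (GRCm38.p6) for 33 of the 40 genes, as 41 windows that run from 250 bases before the annotated start to 50 bases after it, and that therefore cover the proximal promoter and the first bases of exon 1. The letters TTTCCCGC, TTTCGCGC, TTTGCCGC and TTTGGCGC, which are forms of the E2F element, were searched on both strands. At least 1 of them stood in 13 of the 41 windows (31.7%), against 744 of the 32851 windows of all genes (2.26%). The letters CCAAT, bound by NF-Y, stood on either strand in 24 of the 41 windows (58.5%) and in 37.4% of all windows. The letters TTTGAA, a form of the CHR element of G2 and mitosis genes, stood in 8 (19.5%) and in 17.9% of all. These matches describe the letters of the windows and do not show that a factor binds there. The windows of the 6 genes with an E2F word and the highest mean FPKM are shown because 4 of them are licensing genes, a role in which every gene had a lower mean with BX795, with the E2F words in capitals and each written 5′ to 3′ on the strand of the gene:
Mcm7: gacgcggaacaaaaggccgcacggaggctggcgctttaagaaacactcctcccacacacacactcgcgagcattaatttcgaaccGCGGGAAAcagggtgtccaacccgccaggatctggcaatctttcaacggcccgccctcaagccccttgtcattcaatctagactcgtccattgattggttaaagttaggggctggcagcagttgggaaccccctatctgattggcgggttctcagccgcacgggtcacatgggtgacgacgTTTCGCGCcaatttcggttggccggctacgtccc
Mcm3: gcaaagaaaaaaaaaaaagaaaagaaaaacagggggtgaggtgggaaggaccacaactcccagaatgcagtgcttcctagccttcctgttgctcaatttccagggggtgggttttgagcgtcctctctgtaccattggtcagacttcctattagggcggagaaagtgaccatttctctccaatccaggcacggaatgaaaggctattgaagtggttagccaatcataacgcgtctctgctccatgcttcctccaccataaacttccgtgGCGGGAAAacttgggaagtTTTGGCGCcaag
Mcm5: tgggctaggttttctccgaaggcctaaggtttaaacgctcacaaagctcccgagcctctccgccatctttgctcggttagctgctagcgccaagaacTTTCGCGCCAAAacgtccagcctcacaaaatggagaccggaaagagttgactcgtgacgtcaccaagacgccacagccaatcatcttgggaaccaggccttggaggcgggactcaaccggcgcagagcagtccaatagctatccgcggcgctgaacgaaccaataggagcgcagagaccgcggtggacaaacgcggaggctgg
Lig1: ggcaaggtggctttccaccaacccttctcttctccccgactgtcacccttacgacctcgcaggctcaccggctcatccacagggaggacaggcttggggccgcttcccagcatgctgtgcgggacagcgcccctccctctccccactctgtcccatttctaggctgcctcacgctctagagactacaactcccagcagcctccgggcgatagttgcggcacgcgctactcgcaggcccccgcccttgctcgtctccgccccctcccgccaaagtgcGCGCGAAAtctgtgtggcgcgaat
Rfc3: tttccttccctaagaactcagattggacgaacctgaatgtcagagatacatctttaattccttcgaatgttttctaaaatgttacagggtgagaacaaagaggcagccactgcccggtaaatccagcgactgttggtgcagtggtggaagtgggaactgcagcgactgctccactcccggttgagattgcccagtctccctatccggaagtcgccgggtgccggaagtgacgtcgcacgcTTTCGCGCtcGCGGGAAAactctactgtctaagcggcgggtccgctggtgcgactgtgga
Cdt1: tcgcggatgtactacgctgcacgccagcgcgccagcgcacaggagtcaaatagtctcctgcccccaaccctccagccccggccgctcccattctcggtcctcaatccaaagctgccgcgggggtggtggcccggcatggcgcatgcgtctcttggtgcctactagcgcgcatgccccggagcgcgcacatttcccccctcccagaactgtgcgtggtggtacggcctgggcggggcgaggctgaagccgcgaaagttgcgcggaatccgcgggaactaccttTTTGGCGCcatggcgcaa
They lie at chr5:138171834-138172133, minus strand (Mcm7), chr1:20820263-20820562, minus strand (Mcm3), chr8:75109259-75109558, plus strand (Mcm5), chr7:13278576-13278875, plus strand (Lig1), chr5:151651159-151651458, minus strand (Rfc3) and chr8:122567765-122568064, plus strand (Cdt1). Words GCGGGAAA, GCGCCAAA and GCGCGAAA are the same elements read on the other strand, and in Mcm5 the pair of words overlaps, so that its capitals form 1 run. Cdc6, Orc1, Gins3, Pola1, Pold1, E2f2 and Cdc25a also held 1 word each.

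Since FPKM holds no totals of reads, library depth is unknown. Summed over genes, FPKM came to between 467348 and 513761 per library, of which the 40 genes took 0.338% to 0.391%. Of the 8 fibroblast markers, 7 passed the filter, led by S100a4, Lgals1 and Vim, whereas Thy1 was at or below 0.13 FPKM in every library. The other cell type markers were at or below 0.44 FPKM in every library with the exception of the lysosomal gene Cd68, which was between 111 and 138 FPKM. Libraries with the same label did not always carry the same state. Ifit1, an interferon-induced gene that has no part in replication, had 0.18, 0.20 and 0.20 FPKM in the mock libraries, against 0.45, 0.04 and 0.11 FPKM in the BX795 libraries. In contrast, the libraries labelled pEGFP-N1 read 96.7, 0 and 95.2 FPKM, and the libraries labelled with the combination read 92.6, 0.17 and 0.57 FPKM. The libraries labelled pEGFP-N1 replicate 2 and BX795 plus pEGFP-N1 replicate 1 therefore stood apart from the others of their groups, and the comparison of the combination with pEGFP-N1 is given with and without them. Other interferon-induced genes set BX795 replicate 1 apart as well. Cxcl10, a chemokine, had 7.86, 0.90 and 1.85 FPKM in the BX795 libraries and 0.31, 0.47 and 0.42 FPKM in the mock libraries, while the libraries of the combination read 136, 5.68 and 6.47 FPKM. The BX795 libraries had 3.50, 0.80 and 0.74 FPKM of Oasl1 and 3.76, 1.90 and 1.26 FPKM of Isg15, with replicate 1 the highest in both. Whether labels were exchanged was not tested for any of these 3 libraries, and every value rests on the labels as given. In pEGFP-N1 replicate 2 and BX795 plus pEGFP-N1 replicate 1, Gins1 lay with the other libraries of each label, at 28.1 and 24.2 FPKM. It was the only 1 of the 40 genes whose transfected groups did not overlap. Cdc6 did not lay with them, at 11.1 and 19.4 FPKM. In pEGFP-N1 replicate 2, 33 of the 40 genes were nearer to the BX795 mean than to the mock mean (74.8% of all genes). In BX795 plus pEGFP-N1 replicate 1, 7 were (29.1% of all genes).

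The first comparison asked how the replication genes stood after BX795 alone. On the log2(FPKM + 1) scale, 32 of the 40 genes had a lower mean with BX795 than in mock and 8 had a higher one, where 43.1% of all genes tested had a lower one. The median difference of the 40 genes was -0.16, from -0.81 (Cdc6) to 0.29 (Dbf4), against 0.03 over all 10412 genes. In 23 of the 40 genes every BX795 library was below every mock library, and in 4 every BX795 library was above. The corresponding shares of all genes were 16.2% and 23.6%, and since the genes were listed with this difference known nothing is read from these shares. The 4 genes above were Dbf4, Pold1, Lig1 and Tk1, and in the other 13 genes the groups overlapped. BX795 replicate 1, which stood apart in Cxcl10, also had the median over the 40 genes nearest to 0 in its group, so nothing is read from a move away from 0 when it is left out. Without it the median difference was -0.20 and 34 of the 40 genes had a lower mean (42.7% of all genes). The groups then did not overlap for 29 genes below mock (26.0% of all genes) and 5 above (37.2% of all genes). The difference without it was -0.85 for Cdc6, -0.71 for Ccne1, -0.64 for Ccne2, -0.54 for Orc2, -0.52 for Fam111a and 0.24 for Dbf4. In RNA from a whole culture, fewer cells in S phase and less of each transcript per cell cannot be told apart. The heatmap of the single libraries shows the BX795 libraries as mostly blue columns with a few red rows.

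**Figure D1:**
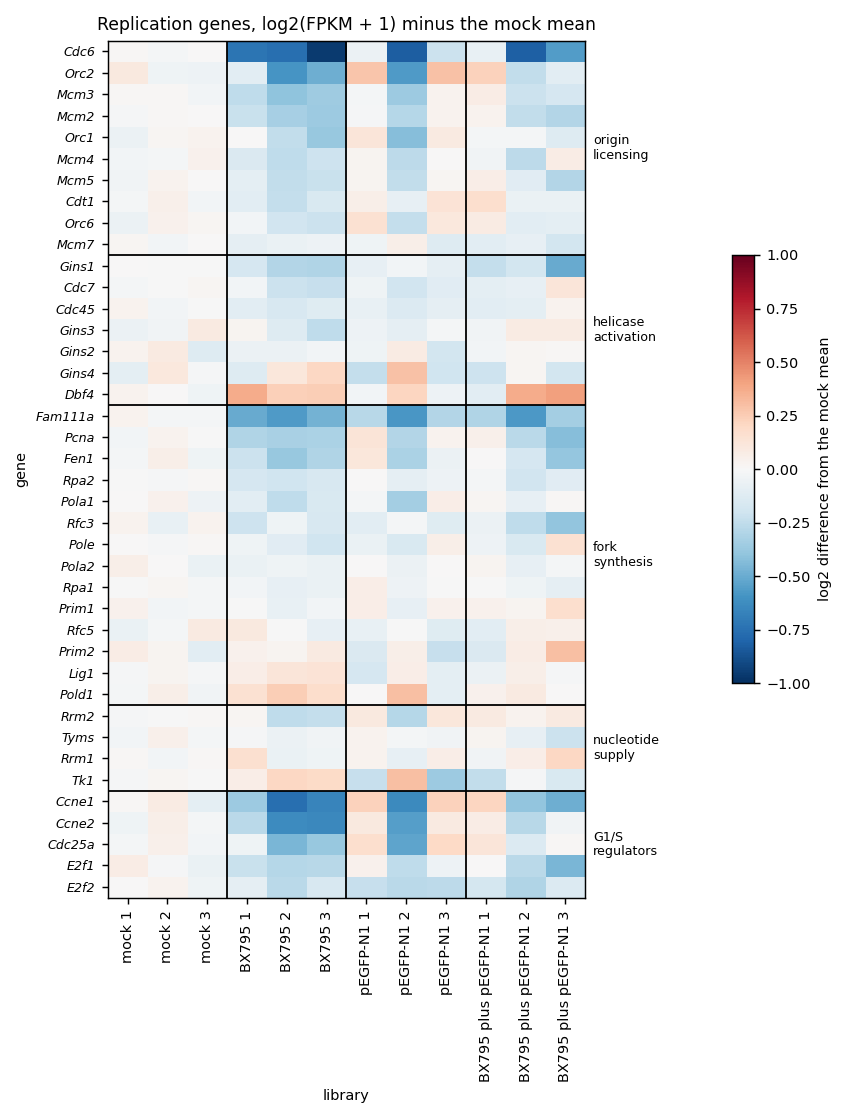
Each row is one of the 40 genes, grouped by role and ordered by its difference between BX795 and mock, and each column is one of the 12 libraries, with color showing log2(FPKM + 1) minus the mean of the 3 mock libraries. Blue is most common in BX795 replicates 2 and 3, in pEGFP-N1 replicate 2 and in BX795 plus pEGFP-N1 replicate 2, while Dbf4 is red in all 3 BX795 libraries.

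Of the origin licensing genes, 10 of 10 had a lower mean with BX795 (43.1% of all genes) and 8 of 10 were lower without overlap between the libraries (16.2% of all genes), with a median difference of -0.20. As the genes were listed with this difference known, the counts by role here and in the following paragraphs are a description. Cdc6, the loader of the helicase, had 20.7, 20.2 and 20.5 FPKM in the mock libraries, against 11.9, 11.8 and 10.1 FPKM in the BX795 libraries. All 3 BX795 values lay far below the narrow mock range, and the difference of -0.81 (standard error 0.20, 0.569 times mock) was the largest of the 40 genes. After pEGFP-N1 the values were 19.6, 11.1 and 17.4 FPKM, and after the combination they were 19.4, 11.2 and 13.6 FPKM, so that replicate 2 of the first and replicates 2 and 3 of the second were the low ones. Orc2, a subunit of the origin recognition complex, had 22.4, 20.2 and 20.0 FPKM in the mock libraries, against 19.3, 13.5 and 14.6 FPKM in the BX795 libraries. BX795 replicate 1 stood just below the mock range and the other two well below it (difference -0.40, standard error 0.21). In the transfected libraries, Orc2 had 25.5, 13.7 and 25.8 FPKM after pEGFP-N1, and 24.7, 17.4 and 19.3 FPKM after the combination, and 27.8% of its 31-mers occur in another gene, which makes its values less certain. Mcm3, a helicase subunit, had 69.0, 69.1 and 67.2 FPKM in the mock libraries, against 57.2, 51.6 and 53.2 FPKM in the BX795 libraries, without overlap (difference -0.34, standard error 0.10). After pEGFP-N1 the values of Mcm3 were 67.5, 53.0 and 70.3 FPKM, and after the combination 72.2, 59.0 and 60.7 FPKM, low in the same libraries as those of Cdc6.

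The other helicase subunits did not all move by the same amount. Mcm2 went from 66.1 ± 0.59 FPKM (SD, n = 3) in mock to 53.5 ± 2.85 FPKM (SD, n = 3) with BX795, a difference of -0.30. Mcm4 (-0.20) and Mcm5 (-0.19) lay between Mcm2 and Mcm7, whose difference was -0.07 with 77.1, 74.5 and 76.4 FPKM in the mock libraries, against 71.2, 72.7 and 73.2 FPKM in the BX795 libraries. Mcm7 thus had the smallest difference of the licensing genes, although its libraries did not overlap, and 33.4% of its 31-mers occur in another gene. Cdt1, which loads the helicase with Cdc6, differed by -0.17 without overlap. Orc1 (-0.21) and Orc6 (-0.14), also of the origin recognition complex, overlapped with mock through BX795 replicate 1, which was at 14.2 FPKM for Orc1 and 29.6 FPKM for Orc6.

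**Figure D2:**
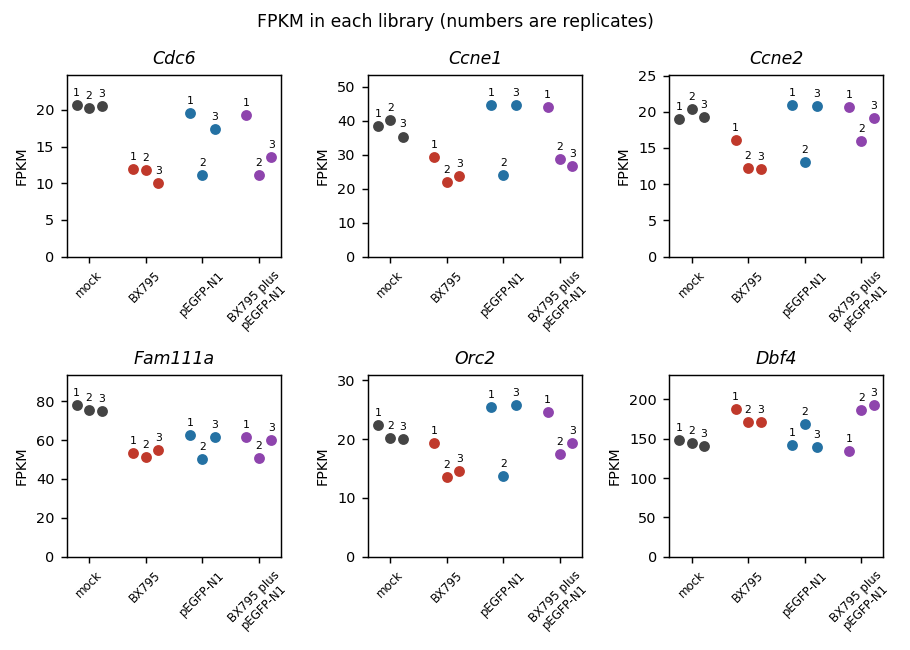
FPKM of 6 genes in each library, with 1 point per library, its replicate number above it and the 4 groups along the x axis. For Cdc6, Ccne1, Ccne2 and Orc2, pEGFP-N1 replicate 2 lies near the BX795 points and BX795 plus pEGFP-N1 replicate 1 lies near the other pEGFP-N1 points.

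The helicase activation genes were mixed, with 5 of 7 lower (43.1% of all genes) and a median difference of -0.12. Dbf4, the regulatory subunit of the Cdc7 kinase, had 148, 145 and 140.4 FPKM in the mock libraries, against 187, 171 and 171 FPKM in the BX795 libraries. All BX795 libraries were above all mock libraries, and this was the largest positive difference of the 40 genes (0.29, standard error 0.12, 1.22 times mock). After pEGFP-N1 the values were 141, 168 and 139 FPKM, and after the combination they were 134, 187 and 192 FPKM, with the high values in replicate 2 of the first and in replicates 2 and 3 of the second. Cdc7, the kinase that Dbf4 activates, went the other way. It had 16.1, 16.3 and 16.6 FPKM in the mock libraries, 16.0, 14.0 and 13.8 FPKM after BX795, 15.8, 14.2 and 15.1 FPKM after pEGFP-N1, and 15.2, 15.4 and 17.8 FPKM after the combination. BX795 replicate 1 was only just below mock, so that its difference of -0.16 (standard error 0.08) came mainly from replicates 2 and 3. Gins1, of the 4-subunit GINS complex, had 28.8, 28.6 and 28.6 FPKM in the mock libraries, 25.4, 23.2 and 23.1 FPKM after BX795, 27.0, 28.1 and 26.9 FPKM after pEGFP-N1, and 24.2, 25.1 and 19.9 FPKM after the combination. It was lower in every library with BX795 than in every library without it, whether transfected or not (difference BX795 minus mock -0.26, standard error 0.08). The other subunits Gins2 (-0.05), Gins3 (-0.12) and Gins4 (0.06) overlapped with mock, and 66.2% of the 31-mers of Gins2 occur in another gene. Cdc45, which joins GINS on the helicase, was lower without overlap (-0.13).

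Of the 14 genes for synthesis at the fork, 10 were lower (43.1% of all genes), 7 of them without overlap (16.2% of all genes). Another 2 were higher without overlap (23.6% of all genes), and the median difference was -0.09. Fam111a, a protease that acts with PCNA at forks, had 77.9, 75.3 and 75.2 FPKM in the mock libraries, against 53.4, 51.1 and 54.7 FPKM in the BX795 libraries (difference -0.51, standard error 0.09, 0.701 times mock). After pEGFP-N1 the values were 62.5, 50.4 and 61.8 FPKM, and after the combination they were 61.5, 50.8 and 60.0 FPKM. Fam111a was thus below all 3 mock libraries in each of the 9 others, those with plasmid and no BX795 included. Pcna, the sliding clamp, had 254, 266 and 259 FPKM in the mock libraries, against 211, 207 and 208 FPKM in the BX795 libraries (difference -0.31, standard error 0.12). After pEGFP-N1 it had 283, 212 and 266 FPKM, and after the combination 269.6, 215 and 193 FPKM, so that replicates 1 and 3 of the first lay above mock and replicate 2 below. Fen1, the flap nuclease of lagging strands, had 40.0, 42.2 and 39.3 FPKM in the mock libraries, 34.7, 30.9 and 32.8 FPKM after BX795, 43.9, 32.4 and 38.9 FPKM after pEGFP-N1, and 40.6, 35.9 and 30.8 FPKM after the combination. Its BX795 libraries were all below mock (difference -0.30, standard error 0.11), but 79.6% of its 31-mers occur in another gene, as do 23.3% of those of Pcna, so both values are uncertain.

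The polymerases differed by subunit. Pola1, the catalytic subunit of polymerase α, was lower without overlap (-0.17), while Pola2, its accessory subunit, and the primase subunit Prim1 were at -0.06 and -0.03 and overlapped. Prim2, the other primase subunit, was at 0.05. Pole, the catalytic subunit of polymerase ε, was lower without overlap (-0.12), and Pold1, that of polymerase δ, was higher, from 18.9 ± 0.73 FPKM (SD, n = 3) to 21.7 ± 0.78 FPKM (SD, n = 3), a difference of 0.19. Lig1, the ligase that seals Okazaki fragments, was also above mock in every BX795 library (difference 0.11). The single-strand binding proteins Rpa1 (-0.06) and Rpa2 (-0.17) were lower without overlap. The clamp loader subunits Rfc3 (-0.14) and Rfc5 (0.0053) overlapped with mock, and 19.3% of the 31-mers of Rfc5 occur in another gene.

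The 4 genes for nucleotide supply showed no common direction (2 lower, against 43.1% of all genes, and 2 higher, with a median difference of -0.01). Rrm2, a subunit of ribonucleotide reductase, had 216, 218 and 221 FPKM in the mock libraries, against 222, 183 and 185 FPKM in the BX795 libraries. Replicate 1 of BX795 lay above mock and replicates 2 and 3 below it, and the difference of -0.16 (standard error 0.10) rests on the latter. In the transfected libraries, Rrm2 had 233, 179 and 237 FPKM after pEGFP-N1, and 233, 224 and 232 FPKM after the combination. Rrm1, the other subunit, differed by 0.02. Tk1, thymidine kinase, had 82.5, 84.2 and 82.7 FPKM in the mock libraries, 87.0, 96.3 and 94.8 FPKM after BX795, 70.7, 102 and 64.5 FPKM after pEGFP-N1, and 69.9, 82.4 and 74.5 FPKM after the combination. It was above mock in all BX795 libraries (difference 0.15, standard error 0.14) and, in contrast, below mock in pEGFP-N1 replicates 1 and 3. Tyms, thymidylate synthase, had 27.7, 29.2 and 27.8 FPKM in the mock libraries, 27.9, 27.1 and 27.6 FPKM after BX795, 29.0, 27.8 and 27.5 FPKM after pEGFP-N1, and 28.8, 26.6 and 24.1 FPKM after the combination, and the BX795 and mock ranges overlapped (difference -0.03, standard error 0.07).

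All 5 G1/S regulators were below mock in every BX795 library (16.2% of all genes), with a median difference of -0.29. Ccne1, cyclin E1, had 38.4, 40.3 and 35.4 FPKM in the mock libraries, against 29.2, 22.1 and 23.6 FPKM in the BX795 libraries (difference -0.60, standard error 0.23, 0.662 times mock). After pEGFP-N1 the values were 44.7, 24.0 and 44.6 FPKM, and after the combination 44.1, 28.7 and 26.8 FPKM, which puts pEGFP-N1 replicate 2 within the BX795 range and BX795 plus pEGFP-N1 replicate 1 above all mock libraries. Ccne2, cyclin E2, had 18.9, 20.4 and 19.3 FPKM in the mock libraries, 16.1, 12.3 and 12.1 FPKM after BX795, 21.0, 13.0 and 20.9 FPKM after pEGFP-N1, and 20.7, 15.9 and 19.1 FPKM after the combination. BX795 replicate 1 was the highest of its group for both cyclins (Ccne2 difference -0.51, standard error 0.17, with 15.6% of its 31-mers in another gene). Cdc25a, the phosphatase that activates the kinases of cyclin E, had 13.5, 14.2 and 13.4 FPKM in the mock libraries, 13.3, 9.72 and 10.3 FPKM after BX795, 15.5, 9.17 and 15.8 FPKM after pEGFP-N1, and 14.9, 12.3 and 13.8 FPKM after the combination. Here BX795 replicate 1 lay close to mock, and the difference was -0.29 (standard error 0.17). The E2F genes themselves were also lower, E2f1 with 33.7 ± 1.70 FPKM (SD, n = 3) in mock and 27.9 ± 0.74 FPKM (SD, n = 3) with BX795 (difference -0.26), and E2f2 with a difference of -0.17. The standard errors in these comparisons come from 1 fit of all 12 libraries, so they carry the wide spread of the transfected groups.

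Where a window was available, an E2F word stood in 8 of the 19 genes that were below mock in every BX795 library, in 2 of the 4 that were above and in 3 of the 10 that overlapped. The words were thus present in genes of either direction, including Lig1 and Pold1, and the counts are too few to compare.

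Other genes of the cell cycle were read from 3 further lists. Of 45 other replication factors, 32 were lower with BX795 (median difference -0.11), 21 below every mock library (16.2% of all genes) and 7 above (23.6% of all genes). Chaf1b, a subunit of the histone chaperone that assembles new chromatin, was at 26.6 ± 1.41 FPKM in mock and 20.0 ± 1.45 FPKM with BX795 (SD, n = 3 each), a difference of -0.40. Clspn, the checkpoint mediator of the fork, differed by -0.38. Ctc1, of the complex that completes telomere replication, had the largest positive difference of that list (0.47). Among 24 genes of G1 and E2F control, 13 were lower, 11 of them without overlap, and 4 were higher without overlap (median difference -0.08), beside the same shares of all genes. Ccnd1, cyclin D1, had 134, 135 and 136 FPKM in the mock libraries, against 92.5, 84.3 and 86.7 FPKM in the BX795 libraries, a difference of -0.62. Cdkn1a, which encodes the kinase inhibitor p21, had 54.0, 55.0 and 54.2 FPKM in the mock libraries, against 77.8, 77.7 and 78.4 FPKM in the BX795 libraries, a difference of 0.51. The repressor E2f7 differed by -0.42. The G2 and mitosis genes were the contrary of the replication genes, with 28 of 29 higher (median difference 0.34) and 26 above every mock library (23.6% of all genes). Kif20a (0.58) and Cdc20 (0.58), of late mitosis, and Ccnb2 (0.53), cyclin B2, had the largest of these differences. These lists were also written with earlier results known, and their counts are a description.

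**Figure D3:**
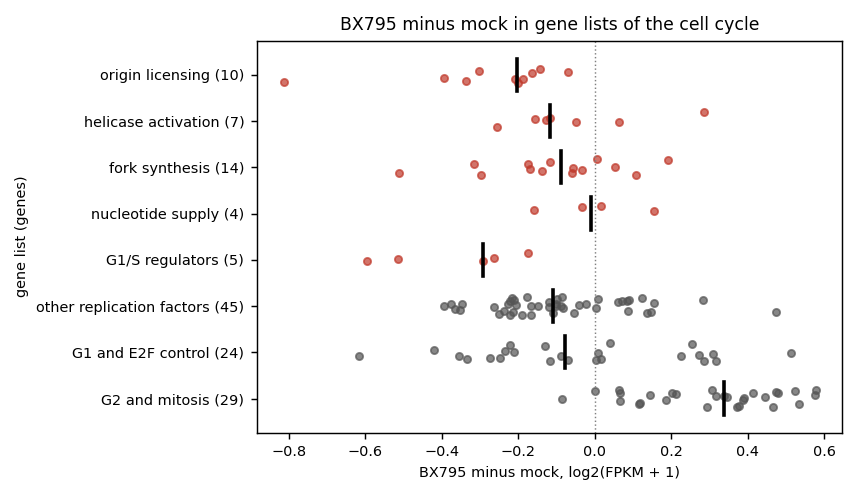
Differences BX795 minus mock on the log2(FPKM + 1) scale for each gene (points, red for the 40 replication genes by role and grey for the 3 further lists, with the number of genes in parentheses) and the median of each list (black bars). The bars of origin licensing (-0.20) and G1/S regulators (-0.29) lie left of 0 and that of G2 and mitosis (0.34) lies right of it.

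The transfected libraries were then read one by one against the mean of the mock libraries. The median over the 40 genes was -0.09, -0.20 and -0.18 in the BX795 libraries. In the libraries labelled pEGFP-N1 it was -0.0060, -0.14 and -0.03, and in those labelled BX795 plus pEGFP-N1 it was -0.02, -0.09 and -0.09, in the order of their replicate numbers. Over all genes tested, the medians of the single libraries were between -0.02 and 0.03. In pEGFP-N1 replicates 1, 2 and 3, 14, 28 and 19 of the 40 genes were below every mock library (40.0%, 34.1% and 41.9% of all genes). In BX795 plus pEGFP-N1 replicates 1, 2 and 3, the counts were 17, 28 and 22 (39.5%, 32.8% and 38.0% of all genes). The BX795 libraries gave 26, 30 and 32 (31.3%, 32.3% and 32.7% of all genes). Both replicates 2 thus had shares of the 40 genes like those of BX795 alone, while pEGFP-N1 replicate 1 and BX795 plus pEGFP-N1 replicate 1 had shares near those of all genes.

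**Figure D4:**
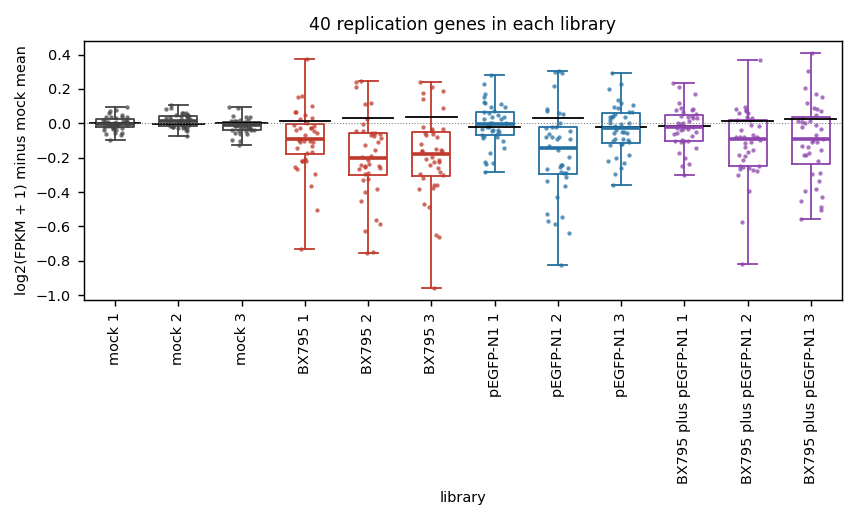
For each library, points are the 40 genes as log2(FPKM + 1) minus the mock mean, the box marks their quartiles and median, the whiskers their lowest and highest values, and the black line the median of all 10412 genes. The boxes of pEGFP-N1 replicate 2 (median -0.14) and of BX795 plus pEGFP-N1 replicates 2 and 3 (both -0.09) lie lower than those of the other 3 transfected libraries.

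Each transfected library was also placed between the mock and BX795 means gene by gene. In pEGFP-N1 replicates 1 and 3, 8 and 9 of the 40 genes were nearer to the BX795 mean (27.8% of all genes in each library). In pEGFP-N1 replicate 2, 33 of the 40 were (74.8% of all genes). The libraries labelled BX795 plus pEGFP-N1 gave 7, 29 and 22 genes (29.1%, 60.7% and 53.1% of all genes). The replication genes were thus nearer to the same mean as most of all genes in each library. Over the 40 genes, the root mean square log2 difference between mock libraries was 0.0677 to 0.0769. The library nearest to pEGFP-N1 replicate 2 was BX795 replicate 2 (0.0834), and the one nearest to BX795 plus pEGFP-N1 replicate 1 was pEGFP-N1 replicate 1 (0.0612). BX795 replicate 1 and BX795 plus pEGFP-N1 replicate 2 were each nearest to the other (0.0689), whereas BX795 replicates 2 and 3 were nearest to each other (0.0718). BX795 plus pEGFP-N1 replicate 3 was farther from its nearest library, BX795 replicate 1 (0.145). G2 and mitosis genes stood the opposite way in the same libraries, with medians of -0.10, 0.26 and -0.08 in those labelled pEGFP-N1 and -0.11, 0.37 and 0.28 in those labelled BX795 plus pEGFP-N1. By their medians, libraries with low Ifit1 were thus the transfected libraries with low replication and high G2 and mitosis genes. Among them, BX795 plus pEGFP-N1 replicate 3 was the least distinct, with 22 of the 40 genes below every mock library (38.0% of all genes). In pEGFP-N1 replicate 3, where Ifit1 was high, the count was 19 (41.9% of all genes). The part that interferon-induced genes have in this pattern was not tested.

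Group means against untransfected cells share libraries with the comparison that the list was drawn from, and are given side by side. pEGFP-N1 minus mock had a median of -0.06 over the 40 genes, with 32 lower, and of -0.0015 with 21 lower without pEGFP-N1 replicate 2. BX795 plus pEGFP-N1 minus BX795 had a median of 0.09, with 29 higher, and of 0.06 with 27 higher without BX795 plus pEGFP-N1 replicate 1. Both differences moved toward 0 when the library that stood apart was left out.

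The comparison of BX795 plus pEGFP-N1 with pEGFP-N1 shares no library with that of BX795 with mock, and was tested with limma over all 10412 genes. With all 6 libraries, 0 of the 40 genes passed an adjusted p under 0.05, as did 0 genes of the whole table (0.00%). Without adjustment, 166 genes (1.59%) had a p under 0.05, and 1 of the 40 did, Gins1. Its difference was -0.24 (standard error 0.08, limma adjusted p = 0.959), and it was the only one of the 40 whose groups did not overlap, lower as in 1.41% of all genes, while 0 of the 40 were higher without overlap (1.39% of all genes). The median difference of the 40 genes was -0.01, with 21 lower and 19 higher, against 0.0073 over all genes. For the 5 genes with the largest differences with BX795 alone, the groups overlapped and the limma adjusted p was between 0.959 and 0.992. Cdc6 differed by -0.12 (standard error 0.20) and Ccne1 by -0.16 (standard error 0.23). Orc2 differed by -0.04 (standard error 0.21), Ccne2 by 0.04 (standard error 0.17) and Fam111a by -0.02 (standard error 0.09). All 5 differences lay within the range that replicates of one group spanned.

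Leaving out pEGFP-N1 replicate 2 and BX795 plus pEGFP-N1 replicate 1 changed this result. These libraries were left out because of their own Ifit1 values, with all labels kept as given. Over the replication genes they also lay nearest to libraries of another label. The counts and p-values of this fit therefore depend on that choice and are a description. The fit rested on 2 libraries in each transfected group, and its spread came mostly from the mock and BX795 libraries. In this fit, 9 of the 40 genes were lower with BX795 plus pEGFP-N1 than with pEGFP-N1 at a limma adjusted p under 0.05 (7.60% of all genes). Another 2 were higher (10.5% of all genes), out of 1886 genes called in all (18.1%). The licensing genes Cdc6, Orc2, Orc6, Mcm2 and Mcm3, the fork genes Pcna and Fen1, and the regulators Ccne1 and E2f1 fell, while Dbf4 and Prim2 rose. Ccne1 had a difference of -0.67 (standard error 0.11, limma adjusted p = 0.00252) and Cdc6 one of -0.55 (standard error 0.10, limma adjusted p = 0.00500). Pcna had -0.43 (standard error 0.06, limma adjusted p = 0.00138) and Orc2 -0.46 (standard error 0.13, limma adjusted p = 0.0342). Dbf4 rose by 0.43 (standard error 0.06, limma adjusted p = 0.00111) and Prim2 by 0.38 (standard error 0.09, limma adjusted p = 0.0148). Ccne2 (-0.25, limma adjusted p = 0.166) and Fam111a (-0.17, limma adjusted p = 0.136) did not pass. Gins1 (-0.26, standard error 0.09, limma adjusted p = 0.0737) did not pass either. Over the 40 genes the median difference was -0.10, against 0.04 over all genes, with 25 lower and 15 higher. The groups did not overlap for 22 lower genes (23.7% of all genes) and for 9 higher genes (33.7% of all genes). By role, 10 of 10 licensing genes were lower against 1 of 7 helicase activation genes. Without those libraries, 25 of 29 G2 and mitosis genes rose, as did 5 of 24 genes of G1 and E2F control, and 3 of the 24 fell. Among them, Ccnd1 had a difference of -0.63 (limma adjusted p = 5.92e-05) and Cdkn1a one of 0.43 (limma adjusted p = 0.000287). Of the other replication factors, 5 of 45 fell and 1 rose. The interferon markers are not counted here, since Ifit1 chose the libraries, and the other counts depend on the same choice.

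**Figure D5:**
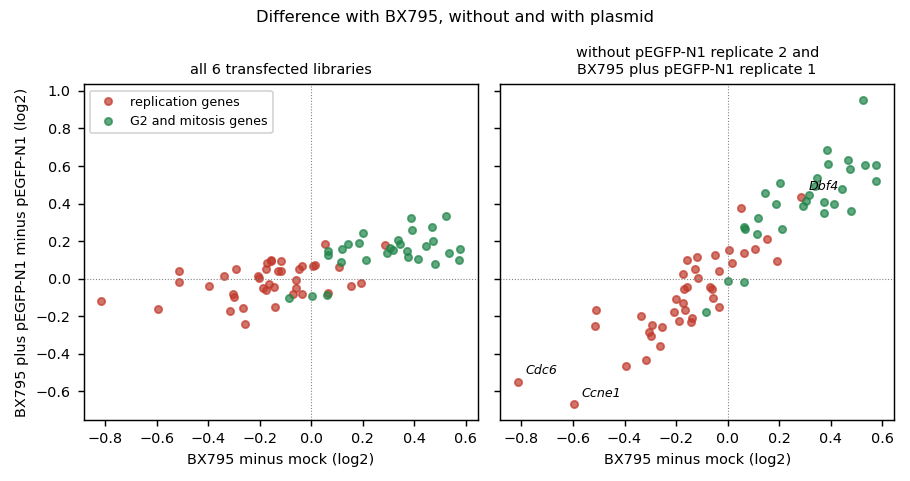
Difference BX795 minus mock (x axis) against BX795 plus pEGFP-N1 minus pEGFP-N1 (y axis), both on the log2(FPKM + 1) scale, for the 40 replication genes (red) and 29 G2 and mitosis genes (green). With all 6 transfected libraries (left) the replication genes lie between -0.24 and 0.18 on the y axis, and without the 2 libraries that stood apart (right) they spread from -0.67 (Ccne1) to 0.43 (Dbf4).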

How the data were processed

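RNA of L929 cells was measured in 12 libraries, 3 in each of 4 groups, and grouped by the agent in the labels. Sequencing was on a BGISEQ-500, and the authors used Bowtie2 2.2.5 with the GRCm38.p5 reference, with at most 200 alignments for a read, followed by RSEM. The values the authors deposited are FPKM per gene, rounded to 2 decimals, so depth is unknown and counting error cannot be stated. Genes were named through RefSeq for 17450 of the 17571 Entrez identifiers (121 were not named).

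FPKM are not counts, so log2(FPKM + 1) was analysed with limma 3.58.1 in R 4.3.3 (4 group means, empirical Bayes with a trend) for the 10412 genes that reached an FPKM of 1 in 3 or more libraries, with Benjamini-Hochberg adjustment over all of them. Differences on this scale understate those of low genes. The test was checked on simulated data. Those data held no library apart from its group, so the check does not cover that feature of the transfected groups. BX795 minus mock and the comparisons that share its libraries were not tested, because the 43 genes, like the further lists, were chosen with earlier results of these data known. The named genes are the 3 with the largest difference between BX795 and mock in each role and each further list, and the transfected libraries are given with statistics for the 5 largest. The alternatives were other pseudocounts, filters, scalings and model settings, single libraries left out, and the replicate number as a block. P-values weigh a difference against the spread between these libraries, which 1 fit estimates from all groups together. The share of 31-mers that a gene shares with another was counted in the GENCODE transcripts of GRCm38 on both strands. Python 3.11.15 with pandas 2.3.3 was used for summaries.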

Additional observations from a re-analysis of the deposited data

Results flagged for a closer look

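In 4 of the 40 genes the difference made by BX795 had opposite signs without and with the plasmid, with every library of the treated group on opposite sides of the mean of its comparison group. The same held for 408 of 10412 genes (3.92%). These are given as values, and the difference between the comparisons was not tested, since it holds BX795 minus mock, with which the genes were chosen. The difference with plasmid minus that without was 0.25 for Cdc7, 0.25 for Pola1, 0.10 for Prim1 and 0.10 for Gins2. Without the libraries labelled pEGFP-N1 replicate 2 and BX795 plus pEGFP-N1 replicate 1 the values were 0.26, 0.12, 0.08 and 0.18, and Pola1 no longer had opposite signs, at -0.05 instead of 0.08 with plasmid and -0.17 without.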

How the results depend on the processing

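The median difference BX795 minus mock of the 40 genes stayed between -0.20 and -0.12 when any one library was left out. The number of genes below mock without overlap was between 23 and 29. It cannot fall when a library is left out, so it does not show stability. Without BX795 replicate 1 it was 29 (26.0% of all genes). With TPM, division by the 75th percentile or quantile normalization the median was -0.17 in each. For BX795 plus pEGFP-N1 minus pEGFP-N1, the median ranged from -0.081 (without pEGFP-N1 replicate 2) to 0.035 when any one library was left out. No member passed in these fits, and 0 genes did. With no filter, 2 genes of the table passed. Without pEGFP-N1 replicate 2 and BX795 plus pEGFP-N1 replicate 1 together, the median was -0.10, 11 of the 40 genes passed instead of 0, and 1886 genes passed instead of 0. Of the 5 genes with full statistics, Ccne2 turned to -0.25 there. Fam111a turned to 0.0135 with TPM and to 0.0125 with quantile normalization. With any one library left out, the values ranged from -0.34 to 0.051 for Cdc6, from -0.17 to 0.15 for Ccne2, from -0.12 to 0.067 for Fam111a and from -0.33 to 0.10 for Orc2, all with a turn of sign, and from -0.45 to -0.02 for Ccne1. The cause was not tested.

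The replicate numbers did not pair the libraries. Deviations of same-numbered libraries correlated across genes at 0.031, 0.022 and 0.050 between mock and BX795, and at 0.635, 0.607 and -0.183 between the transfected groups. With the number as a replicate block, 0 of the 40 genes and 0 of all genes passed, and 194 genes instead of 166 had p under 0.05 without adjustment. With the block and without both libraries, an alternative chosen after the data were seen, the median was -0.072, 7 of the 40 genes passed (Cdc6, Mcm2, Pcna, Ccne1 and E2f1 lower, Dbf4 and Prim2 higher, with 5.27% and 6.80% of all genes), 1257 genes passed, and Ccne2 was at -0.17. The limma adjusted p there was 0.0836 for Orc2, 0.123 for Orc6, 0.129 for Mcm3 and 0.0644 for Fen1.

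The limits are the unknown depth, 3 libraries a group, the libraries that stand apart from their labels, and reads shared with other genes.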
